A study of Danio rerio with 6 samples.

Results

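Cytochrome P450 enzymes (CYP) are haem proteins that oxidise steroids, sterols, fatty acids, vitamins and foreign chemicals. The CYP1 family holds classical targets of the aryl hydrocarbon receptor (AHR), a transcription factor that is held in the cytoplasm by chaperones until a ligand binds. It then moves to the nucleus, pairs with its partner ARNT, and switches on some CYP1 genes, such as *cyp1a*, together with its own inhibitors, the AHR repressors and *tiparp*. In zebrafish, *ahr2* is the receptor known for the response to dioxin, and *cyp1a* RNA is widely used as a reporter of AHR activity in embryos.

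The genes described here are the rows of a zebrafish (*Danio rerio*) read count table whose names are those of CYP genes, AHR genes and their repressors, ARNT genes, and *tiparp*. Genes of the retinoic acid degrading CYP26 enzymes *cyp26a1*, *cyp26b1* and *cyp26c1* were left out. The rule found 110 of 47445 rows, for 90 gene names. Of these rows, 92 are CYP genes and 18 are AHR, ARNT or *tiparp* rows. At least 1 count was present in 92 rows, and 44 rows passed the filter on low counts and were tested.

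RNA came from embryos at 1 day post-fertilisation, 3 samples of wild-type genotype labelled control and 3 labelled as *rapgef1b* knockdown. *rapgef1b* encodes an exchange factor for Rap GTPases, and the study's title concerns its part in the neural crest and the presomitic mesoderm. The labels do not name the strain, the knockdown reagent, any control reagent, or the number of embryos in a sample, and they do not say whether samples came from separate clutches, so p-values measure the spread between these samples only. The cell type label reads "embryonic cell", the extraction was from embryos, and fewer cells of a type cannot be told apart from less RNA per cell.

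Total counts ranged from 2042600 to 3809123 per library. *rapgef1b* itself showed no fall in the knockdown-labelled libraries. Counted reads gave 110.7, 113.2 and 110.5 CPM (reads relative to the scaled size of the library) in control replicates 1, 2 and 3, and 144.4, 107.3 and 142.3 CPM in knockdown replicates 1, 2 and 3. The log2 fold change was 0.24 (standard error 0.14), with an adjusted p of 0.386 by edgeR's quasi-likelihood test. Knockdown replicate 2 lay nearest to the controls on the first principal component of all tested genes, at 5.48, with the controls between -25.2 and -22.7 and the other knockdown libraries at 19.3 and 46. "Higher" and "lower" below refer to the knockdown-labelled libraries against the controls, and a row was called at an adjusted p under 0.05 over all 15607 rows tested.

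Of the 44 tested rows, 5 were called higher and 0 were called lower. They were *cyp1a*, *cyp1d1*, *cyp11a1*, *cyp24a1* and *tiparp*. Of these, *cyp11a1* and *cyp24a1* passed the filter on low counts only through the knockdown-labelled libraries, where they were high. The uncalled rows *cyp11a1-2*, *cyp3c3*, *cyp2x6*, *cyp2r1* and *cyp4t8* also passed it only through those libraries. The counts of higher and positive rows and the median in this paragraph include such rows. They are a description and not evidence of a rise of the group. Over all tested rows, 4.29% were called, 2.01% higher and 2.27% lower, and 10 of the 44 rows had an unadjusted p under 0.05, against 18.1% of all tested rows. All 3 knockdown libraries lay above all 3 controls for 10 of the 44 rows, against 11.3% of all tested rows, and below them for 1, against 11.9%. The median log2 fold change of the 44 rows was 0.25, with 29 rows positive and 15 negative, and that of all tested rows was 0.011. The count of 5 was 6 without knockdown replicate 2, where *ahr1b* was also called lower, 3 without control replicate 3, and 2 without any other single library. *cyp1a* and *cyp11a1* were called in each of these 6 fits. By DESeq2, 2 rows were called higher, *cyp1a* and *cyp11a1*, and 0 lower. Over all rows, the 13 alternative runs, DESeq2 among them, called 93 to 438 higher, against 314 in the fit used here. They called 122 to 572 lower, against 355. Whether the counts of these genes moved apart from the counts over all rows was not tested.

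**Figure D1:**
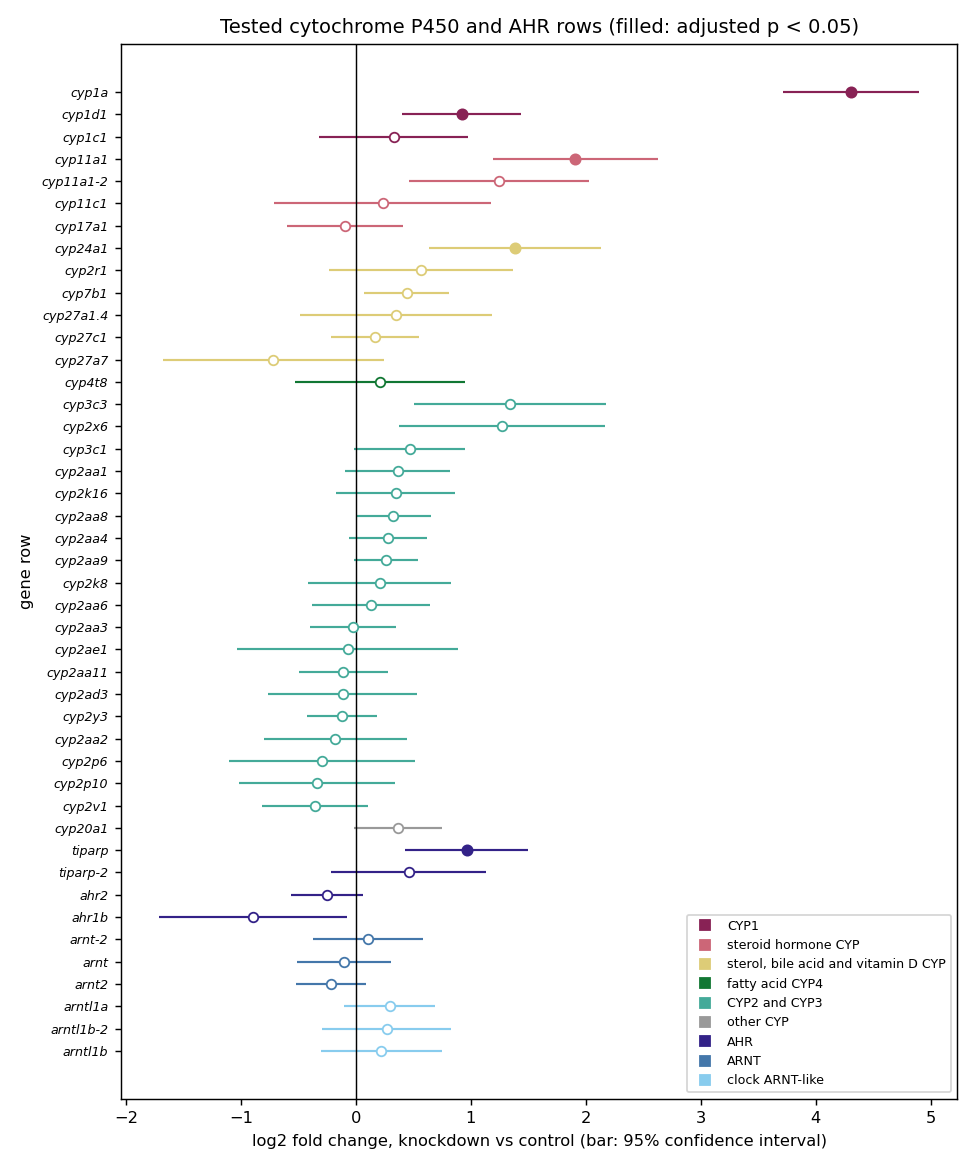
Log2 fold change, knockdown-labelled libraries against controls, for the 44 tested rows (3 libraries per group). Points are edgeR estimates, bars are 95% confidence intervals, colours mark families, and filled points mark the 5 rows called higher. *cyp1a* stands at 4.31, and *cyp11a1* follows at 1.91.

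The CYP1 family has 5 gene names in 6 rows, and its members did not behave alike. *cyp1a*, the main enzyme induced through AHR, had 14.8, 13.4 and 13.8 CPM in control replicates 1, 2 and 3. It had 176, 282 and 380 CPM in knockdown replicates 1, 2 and 3. Every knockdown library lay far above every control, and the knockdown libraries differed from one another far more than the controls did.

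Relative to the control mean of 14.0 ± 0.74 CPM (SD, n = 3), the knockdown libraries stood at 12.6-fold, 20.1-fold and 27.2-fold. For *cyp1a*, the log2 fold change was 4.31 with a 95% confidence interval from 3.71 to 4.90, the highest of the 15607 rows tested, with an edgeR adjusted p of 2.38e-05. It lay between 4.01 (without knockdown replicate 3) and 4.55 (without knockdown replicate 1) when single libraries were left out, and *cyp1a* was called under every alternative run. Knockdown replicate 2, the library nearest to the controls on the first principal component, was not the lowest of the 3 for *cyp1a*.

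*cyp1d1*, a CYP1 gene of fish whose human counterpart is a pseudogene, had 11, 9.46 and 7.16 CPM in controls and 17.3, 16.1 and 20.5 CPM in the knockdown-labelled libraries. The groups did not overlap, and the rise was far smaller than that of *cyp1a*. Whether AHR acts on *cyp1d1* was not tested. Its log2 fold change was 0.92 (standard error 0.25, 95% confidence interval from 0.40 to 1.43), with an edgeR adjusted p of 0.0383. This call was lost without control replicate 1, 2 or 3, at adjusted p-values of 0.0826, 0.153 and 0.131, or when knockdown replicate 1 or 3 was left out, at 0.0610 and 0.144. It was also lost by DESeq2, at 0.108.

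*cyp1c1* and *cyp1c2* are neighbouring genes in RefSeq's gene order and are known in zebrafish as AHR targets. *cyp1c1* had 6.73, 8.15 and 14.3 CPM in controls and 8.41, 12.4 and 14.0 CPM in the knockdown-labelled libraries. The groups overlapped. For *cyp1c1*, the log2 fold change was 0.33, with a 95% confidence interval from -0.32 to 0.98 and an edgeR adjusted p of 0.631. *cyp1c2* had 9, 5 and 0 counts in controls and 1, 2 and 3 counts in the knockdown-labelled libraries, too few to pass the filter.

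*cyp1b1*, a further CYP1 gene, has 2 rows in the table, and both are listed at 0 in all 6 libraries. Such zeros were common among names with copy rows, which carry a trailing number such as -2. Of the 18 names among these genes with copy rows, 7 were listed at 0 in every row, and of the 72 names without copy rows, 1 was. Over the whole table, leaving out clone names, microRNAs and transfer RNAs, the shares were 19.2% and 3.68%. How reads that match both copies were treated is not given in the sources used here, so a zero in these names is not evidence that the gene was silent. The others are *cyp11a2*, *cyp19a1a*, *cyp21a2*, *cyp2x9*, *cyp4v7* and *cyp4v8*.

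**Figure D2:**
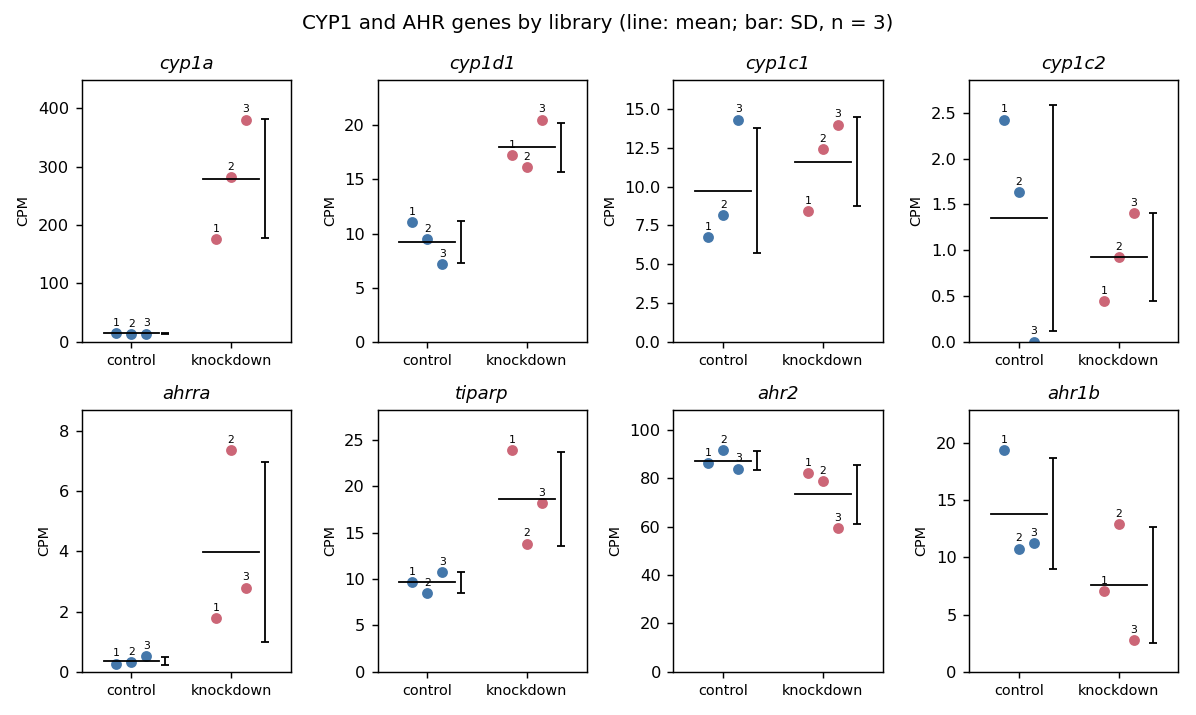
Level in CPM of 4 CYP1 genes and 4 AHR genes in each library, control in blue and knockdown in red, with the replicate number above each point. Lines are means and bars are SD (n = 3), and each panel has its own axis from 0. *cyp1a* rises from about 14 CPM to between 176 and 380 CPM, while *cyp1c1* overlaps between the groups.

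The rise of *cyp1a* changed the makeup of the CYP reads. *cyp1a* held 2.01%, 1.68% and 1.58% of all CYP counts in control replicates 1, 2 and 3. In knockdown replicates 1, 2 and 3 it held 16.0%, 25.4% and 28.1%. The 95% Wilson intervals, which cover counting error only, ran from 1.08% to 2.61% over the controls and from 14.7% to 29.8% over the knockdown-labelled libraries. The summed level of all CYP rows was 804 ± 70.2 CPM in controls and 1186 ± 145 CPM in the knockdown-labelled libraries (SD, n = 3 each). Without *cyp1a*, the sums were 790 ± 70.6 CPM and 907 ± 74.8 CPM. These ranges overlapped, from 722 to 863 CPM in controls and from 826 to 973 CPM in the knockdown-labelled libraries.

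**Figure D3:**
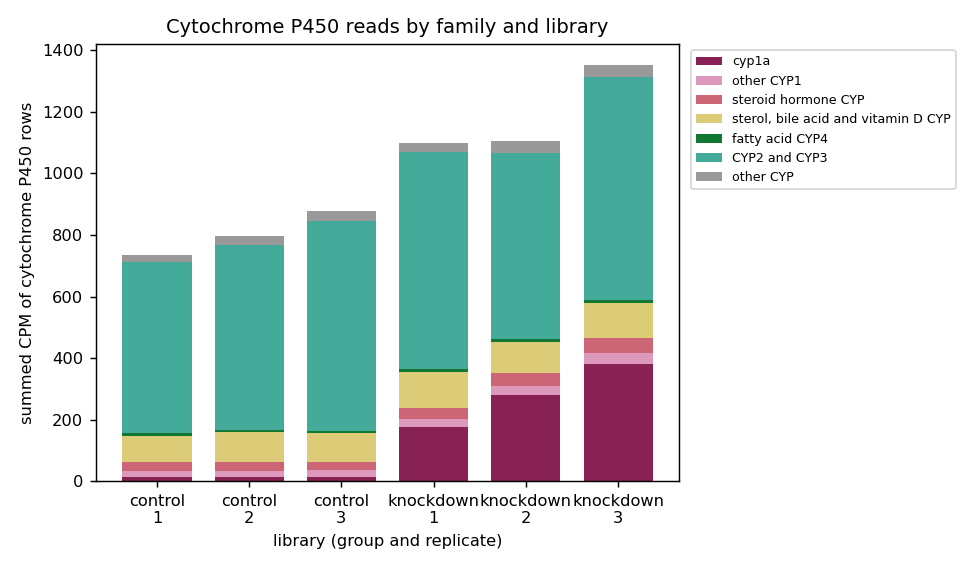
Summed CPM of the CYP rows in each library, stacked by family, with *cyp1a* at the base. The *cyp1a* segment grows from about 14 CPM in controls to between 176 and 380 CPM, and the CYP2 and CYP3 segment takes the largest part in every library.

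No row of an AHR receptor was called in either direction. *ahr2* had 86.2, 91.7 and 83.9 CPM in controls and 81.9, 78.8 and 59.3 CPM in the knockdown-labelled libraries. All knockdown values lay below all controls, but the log2 fold change was -0.25, with a 95% confidence interval from -0.56 to 0.058 and an edgeR adjusted p of 0.389. *ahr1b* had 19.4, 10.8 and 11.2 CPM in controls and 7.09, 12.9 and 2.80 CPM in the knockdown-labelled libraries. Its groups overlapped because of knockdown replicate 2. For *ahr1b*, the log2 fold change was -0.89 (standard error 0.39, edgeR adjusted p of 0.227), and without knockdown replicate 2 it was -1.51 and called lower, at 0.0383. *ahr1a* had at most 3 counts in any library.

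Among genes that restrain AHR, the row *tiparp* was called higher, *tiparp-2* was not called, and the AHR repressors did not pass the filter. *ahrra*, an AHR repressor that AHR itself induces, had 1 count in each control library and 4, 16 and 6 counts in knockdown replicates 1, 2 and 3. All knockdown libraries were above all controls, with the highest value in knockdown replicate 2. Pooled over libraries, the ratio was 11.5 (exact 95% interval from 3.53 to 59.4, counting error only). *ahrra* did not pass the filter. With no filter, where 31075 rows were tested, its edgeR adjusted p was 0.0019. P-values of that fit are not comparable with those of the filtered fit. For *cyp1a* it gave an edgeR adjusted p of 4.12e-115, against 2.38e-05 with the filter, at log2 fold changes of 4.29 and 4.31. The *ahrra* paralog *ahrrb* had at most 2 counts per library in each of its 3 rows.

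*tiparp*, an ADP-ribosyltransferase that is induced by AHR and inhibits it, has 2 rows. The row *tiparp* had 9.70, 8.48 and 10.7 CPM in controls and 23.9, 13.8 and 18.2 CPM in the knockdown-labelled libraries, with no overlap. For *tiparp*, the log2 fold change was 0.97 (standard error 0.26), with an edgeR adjusted p of 0.0364. The copy row *tiparp-2* had 8.35, 5.22 and 10.2 CPM in controls and 8.41, 15.2 and 8.40 CPM in the knockdown-labelled libraries. There the groups overlapped, the log2 fold change was 0.46, and the edgeR adjusted p was 0.488.

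With both rows summed, the log2 fold change of *tiparp* was 0.76 with an edgeR adjusted p of 0.0308. The call of the single row was lost without control replicate 1, 2 or 3, at adjusted p-values of 0.139, 0.185 and 0.0739, on leaving out knockdown replicate 1 or 3, at 0.147 and 0.0719, and by DESeq2, at 0.0962. The split of reads between the rows makes the level of each uncertain.

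The dimerisation partners showed no called change. *arnt2*, an ARNT gene known for its part in neural development, had 85.9, 98.5 and 101 CPM in controls and 72.2, 77.4 and 95.7 CPM in the knockdown-labelled libraries. Knockdown replicate 3 fell within the control range. For *arnt2*, the log2 fold change was -0.21, with an edgeR adjusted p of 0.466. The rows *arnt* and *arnt-2* had log2 fold changes of -0.10 and 0.11, and edgeR adjusted p-values of 0.841 and 0.857. The ARNT-like genes *arntl1a* and *arntl1b* encode core activators of the circadian clock. *arntl1a* had a log2 fold change of 0.29, the *arntl1b* rows had 0.22 and 0.27, and none was called.

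The other genes of AHR signalling came from a list of 19 known or proposed AHR targets outside the CYP family. The list did not separate genes that AHR raises from any that it lowers. Of the 16 tested, 1 was called higher and 0 lower, against 2.01% and 2.27% of all tested rows. Their median log2 fold change was -0.13. By edgeR, 6 had an unadjusted p under 0.05, against 18.1% of all tested rows. All knockdown libraries lay above all controls for 4 and below them for 3, against 11.3% and 11.9% of all tested rows. The called gene was *foxq1a*, a forkhead transcription factor gene. It had 1.89, 2.28 and 2.05 CPM in controls and 5.31, 12.0 and 8.40 CPM in the knockdown-labelled libraries. All knockdown libraries were above all controls, and knockdown replicate 2 was the highest. Every control was below the filter's cutoff, so the row was tested only through the knockdown-labelled libraries. For *foxq1a*, the log2 fold change was 2.02 (standard error 0.42, edgeR adjusted p of 0.00899), and the call was lost without control replicate 1, at 0.0644, or when knockdown replicate 2 was left out, at 0.0543.

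*nqo1*, a quinone reductase and a textbook AHR target in mammals, had 42.3, 48.3 and 52.2 CPM in controls and 29.2, 58.5 and 34.1 CPM in the knockdown-labelled libraries, with overlap and an edgeR adjusted p of 0.637. *foxq1b*, the paralog of *foxq1a*, had a log2 fold change of -0.26, with an edgeR adjusted p of 0.790. Of the 11 chaperones and cofactors of AHR, all tested, 0 were called by edgeR or DESeq2. By edgeR, 1 of them had an unadjusted p under 0.05, against 18.1% of all tested rows. *aip*, the AHR-interacting chaperone, had a log2 fold change of 0.15 (edgeR adjusted p of 0.692). Of 8 tested genes for ARNT partners other than AHR, 0 were called higher and 1 lower, against 2.01% and 2.27% of all tested rows. This was *npas1*, a neuronal transcription factor gene, with 22.4, 24.5 and 25.6 CPM in controls and 3.99, 13.8 and 5.13 CPM in the knockdown-labelled libraries. The groups did not overlap, and knockdown replicate 2 lay nearest to the controls. Its log2 fold change was -1.65 (edgeR adjusted p of 0.00497). It was -2.40 on leaving out knockdown replicate 2 and ran up to -1.33 over the fits without 1 library, and the call held in each of them.

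Among steroid hormone CYP genes, 4 of 12 rows were tested and 1 was called higher, against 2.01% of all tested rows. *cyp11a1* encodes the side-chain cleavage enzyme that turns cholesterol into pregnenolone, the first step of steroid synthesis. It had 4.04, 2.94 and 3.58 CPM in controls and 10.6, 10.6 and 19.1 CPM in the knockdown-labelled libraries. The groups were well apart, with knockdown replicate 3 the highest.

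For *cyp11a1*, the log2 fold change was 1.91 (standard error 0.34), with an edgeR adjusted p of 0.0028. Its estimate lay between 1.57 and 2.05 when single libraries were left out, and the call held in each of those fits. Every control was below the cutoff of the filter on low counts. The row was therefore tested only through the knockdown-labelled libraries, where it was high. The copy row *cyp11a1-2* had 3.23, 3.91 and 2.05 CPM in controls and 8.86, 7.37 and 6.53 CPM in the knockdown-labelled libraries. Its groups did not overlap either, and its log2 fold change of 1.24 had an edgeR adjusted p of 0.0674. This copy row was also below the cutoff in every control. With both rows summed, the log2 fold change was 1.64 with an edgeR adjusted p of 0.000332.

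The later CYP enzymes of the steroid pathway were at low counts or did not pass the test. *cyp17a1*, an enzyme of androgen synthesis, had 14.3, 18.3 and 15.3 CPM in controls and 11.1, 16.1 and 17.7 CPM in the knockdown-labelled libraries, with an edgeR adjusted p of 0.881. *cyp11c1*, the enzyme of the last step to cortisol, had a log2 fold change of 0.23 (edgeR adjusted p of 0.842). *cyp19a1b*, the brain aromatase, had at most 6 counts in any library.

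Of 17 genes of steroid synthesis outside the CYP family, 7 were tested, 2 were called higher and 0 lower, against 2.01% and 2.27% of all tested rows, and their median log2 fold change was -0.026. *hsd3b2* encodes a hydroxysteroid dehydrogenase, of the type that acts on pregnenolone. It had 8.35, 7.83 and 10.2 CPM in controls and 28.3, 16.1 and 29.4 CPM in the knockdown-labelled libraries. Its log2 fold change was 1.5 (edgeR adjusted p of 0.00214), and it was called under every alternative run.

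*stard3*, a cholesterol transport gene, had 28.5, 28.4 and 18.4 CPM in controls and 42.1, 38.2 and 71.8 CPM in the knockdown-labelled libraries, with no overlap. Its log2 fold change was 0.98 (edgeR adjusted p of 0.0234). Without knockdown replicate 3 it was 0.64 and not called, at 0.117, and the call was also lost without control replicate 1, 2 or 3, at 0.0603, 0.0668 and 0.0878. *star*, the cholesterol carrier of steroid-producing glands, had 0, 4 and 2 counts in controls and 0 in each knockdown-labelled library.

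**Figure D4:**
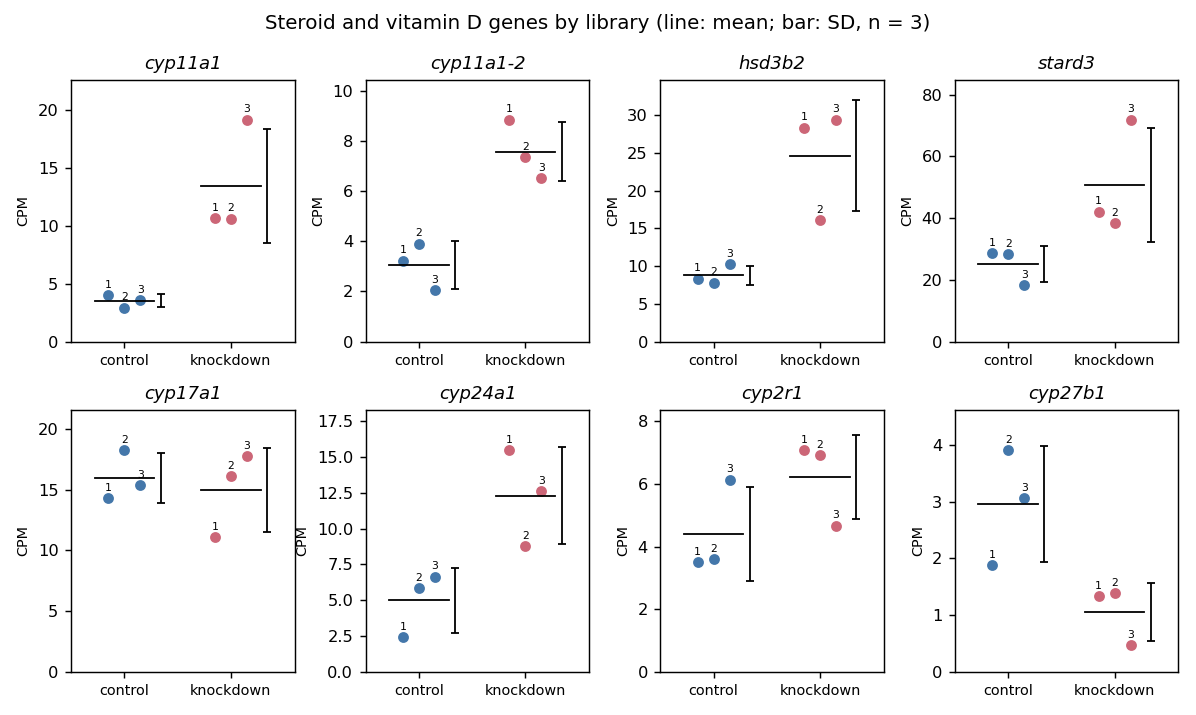
Level in CPM of steroid synthesis and vitamin D genes in each library, drawn as for the AHR genes, with each axis starting at 0. Both *cyp11a1* rows, *hsd3b2*, *stard3* and *cyp24a1* are higher in all 3 knockdown-labelled libraries, *cyp17a1* and *cyp2r1* overlap, and *cyp27b1* lies lower, on few counts.

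Among the CYP genes of sterols, bile acids and vitamin D, 6 of 18 rows were tested. Of these, 1 was called higher, against 2.01% of all tested rows. *cyp24a1*, the enzyme that breaks down active vitamin D, had 2.42, 5.87 and 6.65 CPM in controls and 15.5, 8.75 and 12.6 CPM in the knockdown-labelled libraries. The groups did not overlap, but the values rest on 9 to 35 counts. Control replicate 1 was below the filter's cutoff, so the row passed only through the knockdown-labelled libraries. For *cyp24a1*, the log2 fold change was 1.38 (standard error 0.36), with an edgeR adjusted p of 0.0321. Without control replicate 1 it was 0.98 and not called, at 0.206. The call was also lost without control replicate 2, at 0.0712, on leaving out knockdown replicate 1 or 3, at 0.115 and 0.0725, and by DESeq2, at 0.0636.

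The enzymes that activate vitamin D gave no call. *cyp2r1*, which carries out the first hydroxylation, had a log2 fold change of 0.57 (edgeR adjusted p of 0.466). The *cyp2r1* row passed the filter only through the knockdown-labelled libraries. *cyp27b1*, which makes the active hormone, had 7, 12 and 6 counts in controls and 3, 3 and 1 in the knockdown-labelled libraries and did not pass the filter. With no filter its edgeR adjusted p was 0.349. The vitamin D receptor genes *vdra* and *vdrb* had log2 fold changes of 0.20 and 0.29, neither called.

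*cyp7b1*, an oxysterol hydroxylase, had 28.6, 34.9 and 26.1 CPM in controls and 37.2, 40.5 and 44.8 CPM in the knockdown-labelled libraries. The groups did not overlap, by a narrow margin. For *cyp7b1*, the log2 fold change was 0.44, with a 95% confidence interval from 0.072 to 0.81 and an edgeR adjusted p of 0.176. *cyp27c1*, a vitamin A desaturase, had a log2 fold change of 0.16 (edgeR adjusted p of 0.693). All 4 rows of *cyp46a1*, the cholesterol hydroxylase of brain in mammals, failed the filter. The row *cyp46a1.3* had 9, 9 and 8 counts in controls and 4, 1 and 1 in the knockdown-labelled libraries, with an edgeR adjusted p of 0.215 when no filter was applied.

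The CYP2 and CYP3 families are the broad group of enzymes for foreign chemicals and fatty acid products, and most CYP reads came from them. Of 48 rows, 19 were tested, 10 with a positive and 9 with a negative log2 fold change, and 0 were called in either direction, against 2.01% higher and 2.27% lower over all tested rows. The edgeR p was under 0.05 before adjustment for 2 of the 19, against 18.1% of all tested rows, and DESeq2 called 0. Their median log2 fold change was 0.13 and their range ran from -0.36 to 1.34.

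The 9 *cyp2aa* genes lie close together in RefSeq's gene order, and 8 were tested. *cyp2aa9* had 93.5, 94.3 and 93.6 CPM in controls and 101, 112 and 125 CPM in the knockdown-labelled libraries. Its groups did not overlap, and its log2 fold change of 0.26 had an edgeR adjusted p of 0.308. *cyp2aa8* had 74.6, 90.7 and 100 CPM in controls and 113, 88.5 and 129 CPM in the knockdown-labelled libraries, with overlap and an edgeR adjusted p of 0.281. Over the 8 tested *cyp2aa* genes, log2 fold changes ran from -0.18 to 0.36, with 5 positive and 3 negative. These genes are similar in sequence, and reads may be shared among them.

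*cyp3c3*, of a CYP3 subfamily found in fish, had 3.50, 2.94 and 5.12 CPM in controls and 10.2, 4.61 and 13.5 CPM in the knockdown-labelled libraries. Knockdown replicate 2 fell among the controls. For *cyp3c3*, the log2 fold change was 1.34 (standard error 0.40), with an edgeR adjusted p of 0.0643, and without knockdown replicate 2 it was 1.66 and called, at 0.0147. It was also called with no filter, with library sizes alone, with copy rows summed and with the replicate number as a block (edgeR adjusted p of 0.0473), and not by DESeq2, at 0.139. The call with no filter is not comparable with the others, as described for *ahrra*. *cyp2x6* had 2.16, 1.96 and 4.09 CPM in controls and 7.53, 4.61 and 6.53 CPM in the knockdown-labelled libraries, with no overlap and an edgeR adjusted p of 0.102. Its copy row *cyp2x6-2* had 3, 3 and 5 counts in controls and 8, 6 and 12 in the knockdown-labelled libraries, and the sum of both rows was called higher, at a log2 fold change of 1.39 and an edgeR adjusted p of 0.0263. *cyp3c3* and *cyp2x6* were singled out after their values were seen. Both passed the filter only through the knockdown-labelled libraries, where they were higher.

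*cyp2y3* had 80.8, 84.2 and 83.9 CPM in controls and 91.2, 66.3 and 70.9 CPM in the knockdown-labelled libraries, a log2 fold change of -0.12 with an edgeR adjusted p of 0.725. Of the CYP4 genes, a family of fatty acid hydroxylases, 1 of 7 rows was tested and 4 were listed at 0. *cyp4t8* passed the filter only through the knockdown-labelled libraries and had a log2 fold change of 0.21 (edgeR adjusted p of 0.812). *cyp4f3* had at most 1 count per library. *cyp20a1*, a CYP gene with no established substrate, had 25.6, 31.0 and 29.7 CPM in controls and 29.7, 41.5 and 39.7 CPM in the knockdown-labelled libraries, with an edgeR adjusted p of 0.307.

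Set side by side, the tested CYP1 rows had a median of 0.92 on the log2 scale over 3 rows. With so few rows, that median is the value of *cyp1d1* itself, between 0.33 for *cyp1c1* and 4.31 for *cyp1a*. The CYP rows of all other families had 0.23 over 31 rows, with 2 called higher, against 2.01% of all tested rows. Both called rows, *cyp11a1* and *cyp24a1*, passed the filter only through the knockdown-labelled libraries, as did some uncalled rows of the 31. That median and count are therefore a description and not evidence of a rise. Over all tested rows the median was 0.011. The tested AHR, ARNT and *tiparp* rows had a median of 0.16 over 10 rows, which was -0.056 when copy rows were summed. Whether the families differ from one another was not tested.

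**Figure D5:**
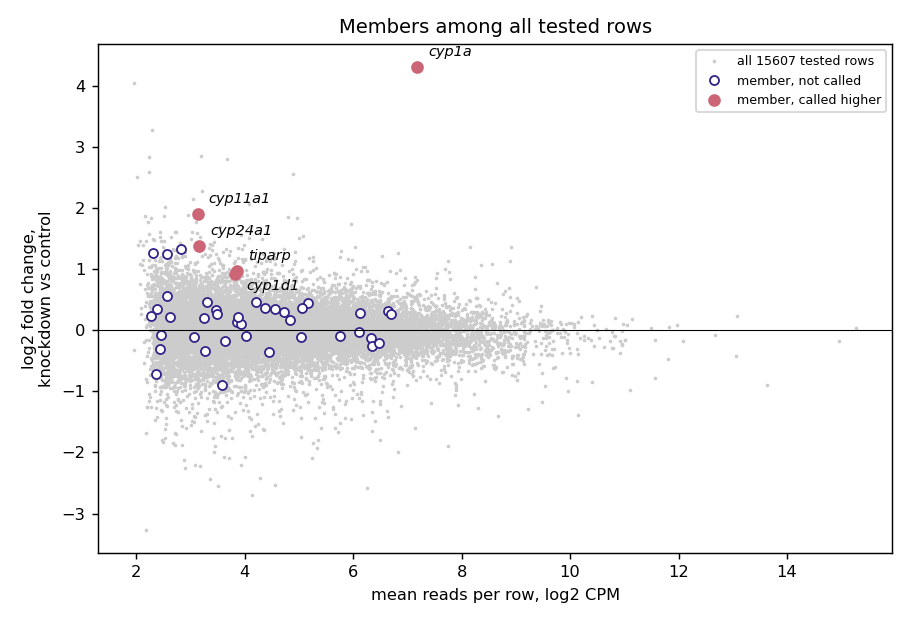
Log2 fold change against mean reads per row (log2 CPM) for all 15607 tested rows in grey, with the CYP, AHR and ARNT rows as circles and the 5 called rows filled. *cyp1a* lies above every other tested row, and the other called rows have few reads.

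The partners on which CYP enzymes depend were examined from a list of 19 genes for electron donors and haem synthesis. Of the 16 tested, 0 were called higher and 1 lower, against 2.01% and 2.27% of all tested rows. *cyb5b*, a cytochrome b5 gene, had 58.5, 60.7 and 75.7 CPM in controls and 37.2, 44.2 and 42.9 CPM in the knockdown-labelled libraries. For *cyb5b*, the log2 fold change was -0.64 (edgeR adjusted p of 0.0286), and the call was lost without control replicate 1, 2 or 3, at 0.0660, 0.0917 and 0.139, or when knockdown replicate 1 was left out, at 0.0725. *pora*, a P450 reductase gene, had a log2 fold change of -0.0058.

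Of 17 tested nuclear receptors of foreign chemicals and lipids, 1 was called higher and 0 lower, against 2.01% and 2.27% of all tested rows. *pparg*, a receptor of fat cell differentiation, had 5.12, 4.89 and 7.16 CPM in controls and 19, 12.4 and 14.0 CPM in the knockdown-labelled libraries. For *pparg*, the log2 fold change was 1.44 (edgeR adjusted p of 0.00673), and the call was lost without control replicate 1 or 2, at 0.0531 and 0.0519. *nr1i2*, the pregnane X receptor that controls CYP3 genes, had a log2 fold change of 0.32 (edgeR adjusted p of 0.455).

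Markers of several tissues also differed between the groups, and their part in the results above was not tested. Over all tested rows, 2.01% were called higher and 2.27% lower. Of 7 tested yolk syncytial layer markers, 4 were called lower, and the summed level of the list was 11676 to 13139 CPM in controls and 7267 to 10369 CPM in the knockdown-labelled libraries. Most of that sum came from *apobb.1*, with means of 9724 CPM in controls and 7302 CPM in the knockdown-labelled libraries. It was not called, at an edgeR adjusted p of 0.181. The list held 8 names, and *mttp* was absent under that name. A row named *mtp*, an alias of *mttp*, went the other way from the 7, with a log2 fold change of 0.34, and was not called (edgeR adjusted p of 0.324). The lipid and retinol carrier genes *rbp4*, *apobb.2* and *apoba* had log2 fold changes of -1.65, -1.24 and -0.83, and the call of *apoba* was lost without control replicate 2, at an edgeR adjusted p of 0.0504. Of 8 tested liver and gut markers, 5 had a positive and 3 a negative log2 fold change, with a median of 0.12, and 2 were called lower, *tfa* and *cp*, with log2 fold changes of -1.17 and -1.12. The summed level of that list was 1419 to 1477 CPM in controls and 787 to 1008 CPM in the knockdown-labelled libraries, and *fabp10a*, which marks hepatocytes, had at most 6 counts. Most of the difference in that sum came from *tfa*, with means of 987 CPM in controls and 440 CPM in the knockdown-labelled libraries. The endoderm genes *hhex*, *cldnc* and *gata6* had log2 fold changes of 0.88, 0.81 and 0.43, with every knockdown library above every control. They were not called, at edgeR adjusted p-values of 0.0764, 0.0965 and 0.130. No other tested row of that list had this pattern, and 3 rows had every knockdown library below every control. Over all tested rows, these patterns held for 11.3% and 11.9%. Of 6 tested radial glia markers, 4 were called lower, with summed levels of 875 to 971 CPM in controls and 621 to 748 CPM in the knockdown-labelled libraries. Among them, *slc1a2b*, *gfap* and *sox3* had log2 fold changes of -0.87, -0.63 and -0.63. The call was lost for *gfap* without control replicate 1 or 2, at 0.0910 and 0.0553, and for *sox3* without control replicate 2, at 0.0617, as edgeR adjusted p-values.

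Of 8 tested endothelial markers, 0 were called by edgeR or DESeq2. Over all tested rows, edgeR called 2.01% higher and 2.27% lower. By edgeR, 3 of the endothelial markers had an unadjusted p under 0.05, against 18.1% of all tested rows. Their summed levels were 224 to 241 CPM in controls and 195 to 253 CPM in the knockdown-labelled libraries. The interrenal gland is the steroid-producing tissue, and none of its markers *nr5a1a*, *nr0b1*, *star* and *mc2r* passed the filter on low counts, so the list gives no tested value for it. The 5 tested genes were listed for the pronephros, and whether they mark it alone was not tested. Of these 5, 0 were called by edgeR or DESeq2 or had an unadjusted p under 0.05 by edgeR. The summed levels of the whole list were 363 to 389 CPM in controls and 386 to 428 CPM in the knockdown-labelled libraries. Of 7 tested epidermal markers, 1 was called higher, *krt17*, with a log2 fold change of 1.37, and the summed levels were 6344 to 7388 CPM in controls and 6243 to 7870 CPM in the knockdown-labelled libraries.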

How the data were processed

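The authors deposited raw read counts, 1 column per library and 1 row per gene name. Per the submitters' processing notes, FastQC, cutadapt, STAR and DESeq2 were used with build GRCz11. The counting tool, annotation, strand setting and handling of multi-mapped reads are not given in the sources used here. Libraries were depleted of ribosomal RNA, per the labels' protocols. Columns were matched to samples by the library name in the labels.

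Rows were filtered with filterByExpr (minimum count 10, minimum total 15), scaled with TMM and tested with edgeR 4.0.16 in R 4.3.3 (glmQLFit with robust=TRUE, glmQLFTest), group being the only term, over all 6 libraries. P-values were adjusted by Benjamini-Hochberg over 15607 rows. CPM uses TMM-scaled library sizes. Standard errors of fold changes were derived from the size of the estimate and its F statistic. The procedure was tested on simulated data. Total counts of 2042600 to 3809123 limit precision for low rows, with a median standard error of 0.22 on the log2 scale.

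Alternatives were DESeq2 1.42.0, other scaling, other filters, summed copy rows, a replicate block, and leaving out each library. The members and gene lists were chosen with earlier results of these data known. Named by rule were every CYP1, AHR and ARNT row with a count and every called member. The rule also covered the 3 most counted rows of each other CYP family and up to 3 called genes per list. Other uncalled genes, such as *nqo1*, *cyp2r1*, *hhex* and *cyp2u1*, were picked by hand outside this rule. RefSeq GRCz12tu gene order, in which 78 of 90 names were found, was used only for neighbours. No sequences or transcript lengths were used, so levels are compared between libraries and not between genes.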

Additional observations from a re-analysis of the deposited data

How the results depend on the processing

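The low total counts limit what can be seen for rows with few reads, such as the 66 member rows that were not tested. Of 57 tested genes named here, 36 kept direction and call in every alternative run, and 10 lost a call in at least 1. A further 4 gained one (*ahr1b*, *cyp3c3*, *cyp2x6* and *hhex*) and 7 changed direction, none of them called. *apobb.1* and *mtp*, also tested and named, were not followed through these runs. Without a filter on low counts, the calls over all rows went from 669 to 1010 and those lower from 355 to 572, the median of the CYP1 rows was 0.60 and that of the AHR and ARNT rows 0.25. That fit gave *cyp1a* a far smaller p-value at a like estimate, so its calls are not comparable with those of the filtered fit. With library sizes alone, 413 rows were called higher and 284 lower, against 314 and 355 with TMM factors. The median of the AHR and ARNT rows was -0.056 with copy rows summed.

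The number of members called higher was 3 with at least 10 counts in every library, where *cyp11a1* and *cyp24a1* were not tested. It was 2 by DESeq2, and 7 both with copy rows summed and with no filter. These runs tested unlike numbers of rows, 14961 with copy rows summed and 31075 with no filter. With no filter, 438 of all rows were called higher. Whether members moved more than all rows was not tested. Leaving out 1 library gave 2 to 6 members higher and 0 to 1 lower. Over all rows such fits gave 219 to 914 calls, 93 to 405 higher and 122 to 509 lower, with medians of 0.071 to 0.17 for AHR and ARNT rows. Direction changed for *arnt* (0.034 without knockdown replicate 2), *arntl1b* (-0.010 without knockdown replicate 3), *cyp17a1* (0.018 without control replicate 2 and 0.085 without knockdown replicate 1) and, with library sizes alone, *pora* (0.052). Over the fits without 1 library, *arnt* ran from -0.35 to 0.034, *arntl1b* from -0.010 to 0.35, *cyp17a1* from -0.24 to 0.085, *cyp11c1* from -0.14 to 0.72, *pora* from -0.15 to 0.094, *vdrb* from -0.24 to 0.50 and *si:ch1073-459b3.2* from -0.32 to 0.089. The cause of these changes was not tested.

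Same-numbered libraries deviated from their group means with correlations of -0.014, 0.066 and 0.069 across genes. Control replicates 2 and 3 correlated best with the knockdown library of the same number. Control replicate 1 correlated best with knockdown replicate 2, at 0.052. These correlations were weak, so the numbers were not taken to pair the samples. With the replicate number as a block, 773 rows were called, 6 of them members, the sixth being *cyp3c3*.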

Other observations

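The genes next to *cyp1a* in RefSeq's gene order were read as a description, chosen after the data were seen. Of the 4 protein-coding genes on either side, 3 were tested and none was called. *si:ch1073-459b3.2*, *si:dkey-205h23.1* and *fam219b* had log2 fold changes of -0.076, 0.39 and 0.59, against 4.31 for *cyp1a*.

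Among rows that did not pass the filter, *cyp2u1*, a fatty acid hydroxylase gene, had 1, 4 and 2 counts in controls and 8, 7 and 6 counts in the libraries labelled knockdown. With no filter its adjusted edgeR p was 0.137. *ugt1ab*, of the glucuronosyltransferase genes, had 0 counts in each control library and 3, 2 and 1 counts in knockdown replicates 1, 2 and 3.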
